A study of Mus musculus with 6 samples.

Results

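The genes described here encode proteins that package, store, translate and degrade messenger RNA, among them the proteins that build stress granules. They were chosen by name as 47 genes, out of the 26657 gene loci in the deposited expression table, and the FET and hnRNP A families were left out. Where a gene name stood on more than 1 row, the row with the highest mean level was used. Of the 47 genes, 45 passed the filter on low values, a mean of at least 0.5 FPKM (fragments mapped, scaled to transcript length and to sequencing depth), and none of these 45 passed through the level of 1 genotype alone. Igf2bp1 and Igf2bp2 were below it. The rows of 37 of the 47 cover a single annotated coding gene. The genes that share a row are named beside the values of the other 10, except at the Cirbp locus. There, only the number of coding genes is given.

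RNA sequencing was carried out on 3 libraries of Nlk-KO cells and 3 libraries of isogenic WT cells. Both are N2a (Neuro2a), a polyploid mouse neuroblastoma line, and Nlk, which encodes Nemo-like kinase, had been mutated with a Cas9 nickase and paired guide RNAs. The comparison asks which transcripts differ in cells without the kinase. Several knockout clones were expanded in the study, but the sources used here do not say which clone gave which library, and the spread behind each p-value may then be technical or that of 1 clone. No treatment or stress was labelled in either genotype, so the values are levels in unstressed cultures as far as the labels state.

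Stress granules are membraneless assemblies of RNA and protein that form in the cytoplasm when translation initiation is blocked, and they dissolve when translation resumes. G3BP proteins are their central scaffold, with partners that promote or oppose assembly, while poly(A)-binding proteins, initiation factors and helicases enter with the stalled messages. Other mRNA-binding proteins decide how long a message lasts: neuronal ELAV proteins bind AU-rich and U-rich stretches in the 3′ untranslated region (UTR) and stabilize the message, and tristetraprolin, the product of Zfp36, binds AU-rich elements and brings in the enzymes that shorten the poly(A) tail.

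Nlk itself had 6.78, 7.01 and 6.83 FPKM in the Nlk-KO libraries, against 15.8, 16.6 and 16.1 FPKM in the WT libraries, a log2 fold change of -1.22 (SE 0.0373, adjusted p = 1.36e-06). The labels and the transcript therefore match, and part of the transcript remained. Relative depth, set to 1 for WT replicate 1, ran from 0.979 to 1.29 in Nlk-KO libraries and from 1 to 1.16 in WT libraries. The number of loci at 1 FPKM or more was 11441 to 11583 in Nlk-KO libraries and 11526 to 11608 in WT libraries. The 15 neuroblastoma markers summed to 1715 to 1735 FPKM in Nlk-KO libraries and 1836 to 1919 FPKM in WT libraries, with Nefl and Nefm, the neurofilament subunits, the only ones below the filter. Of the 4 smooth muscle markers, Acta2 averaged 11.9 FPKM in Nlk-KO and 0.175 FPKM in WT libraries, while Tagln averaged 0.859 FPKM in Nlk-KO and 0.831 FPKM in WT libraries and did not pass the test, and Myh11 and Cnn1 stayed under 0.5 FPKM in all 6. The astrocyte markers Gfap, Aqp4 and Slc1a3, the macrophage markers Ptprc, Aif1 and Csf1r, and the fibroblast markers Col1a1, Col1a2, Dcn, Lum and Thy1 averaged under 0.5 FPKM in both genotypes. The remaining fibroblast marker, Pdgfra, was higher, at 1.81 FPKM in Nlk-KO and 0.819 FPKM in WT libraries (log2 fold change 1.057). The remaining macrophage marker, Cd68, stands on a row merged with the abundant initiation factor gene Eif4a1 and with Senp3, at 365.6 FPKM in Nlk-KO and 391.9 FPKM in WT libraries, so its own level cannot be read.

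Most stress granule and mRNA-binding protein genes were close to their WT level. Of the 45 tested, 7 were higher in Nlk-KO libraries, 8 were lower and 30 did not pass the test, by limma with Benjamini-Hochberg adjustment over all loci at a threshold of 0.05. Among all 12667 loci tested, 18.6% were higher and 18.5% were lower. The genotypes did not overlap for 22 of the 45, and the share over all loci was 51.0%. The members are abundant, with a median level of 51.3 FPKM against 11.98 FPKM over all loci tested, so the nearest background is the set of loci at 10 FPKM or more. There, 13 of 41 members passed in either direction, and 37.2% of all loci did.

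The median log2 fold change of the 45 was 0.00, against -0.01 over all loci tested. The median size of change, whatever its sign, was 0.07, against 0.14 over all loci and 0.11 over loci of at least 10 FPKM. Replicates lay close together. The median coefficient of variation over the 45 was 3.12% in Nlk-KO libraries and 3.24% in WT libraries. Among the 30 genes that did not pass, the 95% interval of the log2 fold change stayed within 0.25 of 0 for 26.

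Only Zfp36 and Elavl4 passed when the test was made against a change of 1.2-fold. They were also the only members of the 15 that passed when libraries were rescaled to the same FPKM sum over loci with a gene symbol. With 3 libraries a group, an exact permutation test of a single gene cannot give a p below 0.1, so none is given.

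**Figure D1:**
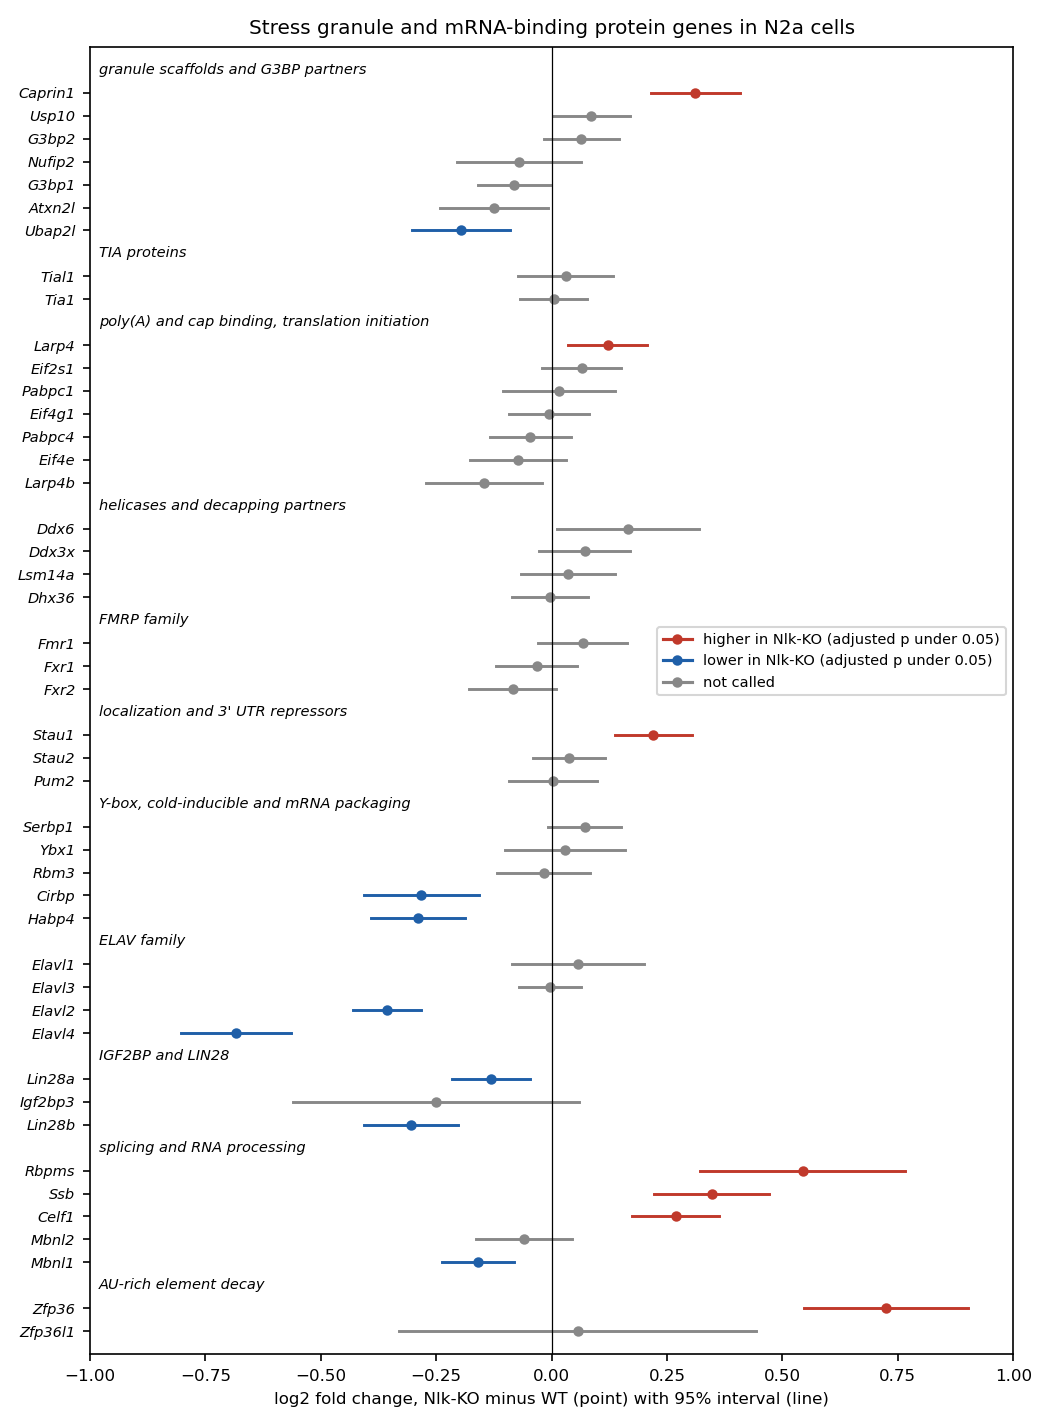
Log2 fold change, Nlk-KO minus WT, on the horizontal axis for each of the 45 tested genes, grouped by role, with points for the estimate and lines for its 95% interval. Red points passed the test with a higher and blue points with a lower level in Nlk-KO libraries, and grey points did not pass. Elavl4 at -0.68 and Zfp36 at 0.72 are the ends of the range.

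The ELAV family split between its members. Elavl4 and Elavl2, which encode the neuronal proteins HuD and HuB, were lower in Nlk-KO cells, while Elavl3, which encodes HuC, differed by less than its spread, as did Elavl1, which encodes the widely expressed HuR. Elavl4 lies on the minus strand of chromosome 4 (GRCm38, 110203722 to 110351909) and had 39.6, 35.3 and 39.2 FPKM in Nlk-KO libraries, against 59.4, 62.7 and 61.2 FPKM in WT libraries. All 3 Nlk-KO libraries were below all 3 WT libraries by a wide margin. The log2 fold change was -0.68 (SE 0.0506, adjusted p = 7.51e-05), and the gene passed under all 16 alternative settings.

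Elavl2, also on chromosome 4 (91250763 to 91400785), had 37.5, 36.0 and 37.6 FPKM in Nlk-KO libraries, against 47.4, 47.5 and 47.5 FPKM in WT libraries. The groups did not overlap, and the WT libraries were nearly identical. Its log2 fold change was -0.36 (SE 0.0310, adjusted p = 0.000159). Elavl3, whose row also covers the predicted gene Gm49318, had 31.0, 30.7 and 31.1 FPKM in Nlk-KO libraries and 31.3, 31.1 and 30.6 FPKM in WT libraries, which interleaved. Its log2 fold change of -0.00 had a 95% interval of -0.07 to 0.06. Elavl1 was the most abundant of the family, with 99.3, 87.1 and 88.2 FPKM in Nlk-KO libraries and 91.2, 89.5 and 83.1 FPKM in WT libraries, which also overlapped (adjusted p = 0.504).

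These paralogs encode similar proteins, so reads could in principle be placed on the wrong copy. No identical stretch of 75 bases, the length of the reads, was shared between the annotated transcripts of any of the 22 paralog pairs examined. Only exact matches were counted, so the placement of reads with mismatches was not tested. The longest identical coding runs of Elavl4 with its neuronal relatives, shown because of this possible misplacement, are these, all letters being shared.
Elavl2 and Elavl4: accatgacccagaaggagctgga
Elavl3 and Elavl4: ttcggcttcgtcaccatgaccaactacga
The first run, of 23 bases, lies in exon 5 of Elavl2-206 (chr4:91264054-91264076) and exon 4 of Elavl4-203 (chr4:110213190-110213212), both on the minus strand. The second, of 29 bases, lies in exon 7 of Elavl3-201 (chr9:22018600-22018628) and exon 7 of Elavl4-203 (chr4:110206429-110206457), again on the minus strand.

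Summed over the 3 neuronal members, the ELAV transcripts reached 108, 102 and 108 FPKM in Nlk-KO libraries, against 138, 141 and 139 FPKM in WT libraries. Elavl4 made up 35.8% ± 1.10 of that sum in Nlk-KO libraries and 43.8% ± 0.702 in WT libraries (SD, n = 3 each). The share of Elavl3, whose own level hardly differed, was 29.2% ± 0.820 in Nlk-KO libraries and 22.2% ± 0.405 in WT libraries (SD, n = 3 each). Elavl2 made up 35.0% ± 0.284 of the sum in Nlk-KO libraries and 34.0% ± 0.365 in WT libraries (SD, n = 3 each). Elavl4 therefore led Elavl2 in every WT library, while in Nlk-KO libraries the pair lay side by side and Elavl2 was ahead in replicate 2.

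**Figure D2:**
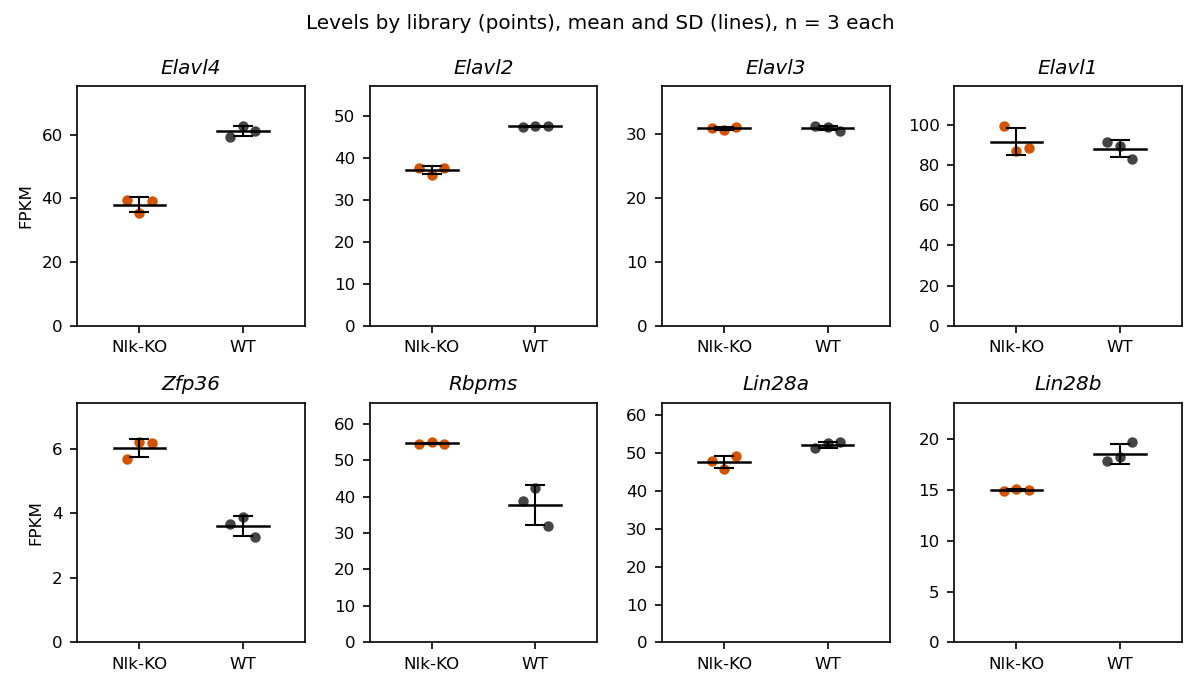
FPKM in each Nlk-KO (orange) and WT (grey) library for the ELAV family, Zfp36, Rbpms and the LIN28 genes, with lines for the mean and SD of 3 libraries. Elavl4 and Elavl2 separate by genotype with Nlk-KO lower, Zfp36 and Rbpms with Nlk-KO higher, and Elavl3 sits at about 31 FPKM in both.

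Of the AU-rich element decay factors, Zfp36 was higher in Nlk-KO cells and its relative Zfp36l1 did not pass the test. The stretch of 250 bases before the start of Zfp36 is shown because the gene had the largest positive change among the members and is known as an immediate early gene, switched on by serum and growth factors. Capitals mark a match to the EGR motif GCGNGGGCG at -105 to -97 and a match to the CArG box (CC, then 6 letters that are A or T, then GG), the letters bound by serum response factor, at -58 to -49, both counted from the start site.
Zfp36 promoter: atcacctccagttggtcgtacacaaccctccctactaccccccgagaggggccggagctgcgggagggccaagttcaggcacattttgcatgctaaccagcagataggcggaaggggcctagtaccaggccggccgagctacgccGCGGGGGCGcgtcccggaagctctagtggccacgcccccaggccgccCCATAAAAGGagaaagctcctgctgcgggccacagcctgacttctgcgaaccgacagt
The sequence is RefSeq's, from GRCm38.p6, chr7:28379229-28379478, minus strand. On either strand, the CArG box was present in 1.399% of 27025 mouse promoters of that length, the EGR motif in 4.65% and the AP-1 motif TGANTCA in 6.87%. Promoters of 41 members were matched by symbol. The CArG box was found in 2 of them (Zfp36 and Eif2s1), the EGR motif in 4 (Fxr1, Ubap2l, Zfp36 and Atxn2l) and the AP-1 motif in 1 (Zfp36l1). A match describes the letters and not a bound site.

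Zfp36 had 5.69, 6.20 and 6.18 FPKM in Nlk-KO libraries, against 3.68, 3.89 and 3.26 FPKM in WT libraries. The Nlk-KO libraries were all above the WT libraries, with a log2 fold change of 0.72 (SE 0.0756, 95% interval 0.55 to 0.90, adjusted p = 0.000384). It passed under all 15 alternatives in which it was tested. Zfp36l1 was scarcer, at 1.44 ± 0.232 FPKM in Nlk-KO and 1.38 ± 0.251 FPKM in WT libraries (SD, n = 3 each), and its interval of -0.33 to 0.44 was the widest upward among the genes that did not pass.

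Elavl4 and Zfp36, which encode AU-rich element binding proteins of opposite known action and stood at opposite ends of the members' range, both carry the AU-rich nonamer TTATTTATT once in the 3′ UTR. The sites are shown with the nonamer in capitals.
Elavl4: tgaaacacTTATTTATTtaattgca
Zfp36: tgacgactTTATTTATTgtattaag
The Elavl4 site is at chr4:110204987-110205011 in exon 7 of Elavl4-203 and the Zfp36 site at chr7:28376953-28376977 in exon 2 of Zfp36-201, both on the minus strand of GRCm38. The nonamer was found in 6.62% of 21561 annotated mouse 3′ UTRs, whose median length was 740 bases, and in 6 of the 47 members. Those 6 had 3′ UTRs of 774 to 4218 bases, and the shares were not adjusted for length. Elavl1 alone holds 8 overlapping or neighbouring copies, and its level did not differ between genotypes beyond its spread. The other carriers, Fmr1, Mbnl2 and Zfp36l1, hold 1 copy each, and none of them passed the test.

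LIN28 proteins bind the precursors of the let-7 microRNAs and block their maturation, and let-7 in turn represses LIN28 through its 3′ UTR. Both LIN28 genes were lower in Nlk-KO cells. The mature let-7a, with its seed in capitals, and the matching sites in the LIN28 3′ UTRs, with the seed match CTACCTC in capitals, are shown as the sequences by which the pair is linked. Mature let-7 was not measured in these libraries.
mmu-let-7a-5p: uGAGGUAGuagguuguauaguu
Lin28a site 1: cctgttgaaCTACCTCatttttgcc
Lin28a site 2: gccacaaacCTACCTCactgtgttg
Lin28b site 1: gcgggaagtCTACCTCatgcaagca
Lin28b site 2: tgttagtaaCTACCTCtgagtttga
Lin28b site 3: agcacatggCTACCTCccagctacc
Lin28b site 4: tggcaccgaCTACCTCttcaatcac
The miRNA sequence is RefSeq's. The seed matches begin at positions 909 and 1547 of the 3′ UTR of Lin28a-201 (2775 bases, exon 4) and at 36, 2410, 2582 and 3998 of that of Lin28b-201 (4445 bases, exon 5). On the minus strand of GRCm38, the Lin28a sites printed are chr4:134005181-134005205 and chr4:134004543-134004567. Those of Lin28b are chr10:45381014-45381038, chr10:45378640-45378664, chr10:45378468-45378492 and chr10:45377052-45377076. The seed match was present in 7.64% of mouse 3′ UTRs, whose median length was 740 bases, and in 11 of the 47 members. Those 11 had 3′ UTRs of 1208 to 13777 bases, and the shares were not adjusted for length.

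Lin28b had 14.9, 15.1 and 15.02 FPKM in Nlk-KO libraries, against 17.8, 18.2 and 19.6 FPKM in WT libraries. The groups did not overlap and the log2 fold change was -0.30 (SE 0.0435, adjusted p = 0.00169). Lin28a, the more abundant of the pair, had 47.9, 45.8 and 49.1 FPKM in Nlk-KO libraries, against 51.2, 52.5 and 52.7 FPKM in WT libraries, which again did not overlap. Its change was smaller, at -0.13 (SE 0.0360, adjusted p = 0.0250), and the call was lost in 8 of 16 alternatives, among them leaving out any WT library (adjusted p = 0.0540 to 0.0715), Nlk-KO replicate 1 (0.0623) or Nlk-KO replicate 2 (0.0529), with a range of 0.0211 to 1 over all 16. Together the LIN28 transcripts summed to 62.6 ± 1.66 FPKM in Nlk-KO and 70.7 ± 1.69 FPKM in WT libraries (SD, n = 3 each).

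The IGF2BP proteins, which bind many messages and stabilize them in embryonic tissue, were scarcely expressed. Igf2bp3, on a row that also covers Malsu1, had 0.653, 0.678 and 0.789 FPKM in Nlk-KO libraries, against 0.856, 0.908 and 0.808 FPKM in WT libraries. The groups did not overlap but the difference did not pass (log2 fold change -0.25, 95% interval -0.56 to 0.06, adjusted p = 0.179). Igf2bp2 was listed at 0.302, 0.194 and 0.237 FPKM in Nlk-KO libraries and 0.404, 0.347 and 0.337 FPKM in WT libraries, and Igf2bp1 was listed at 0 in every library but WT replicate 2. Neither was tested.

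Among the granule scaffolds, Caprin1 was higher and the locus of Ubap2l was lower in Nlk-KO cells, while 5 others did not pass, both G3BP genes among them. Caprin1, the G3BP partner that promotes granule assembly, had 149, 142 and 145 FPKM in Nlk-KO libraries, against 120, 120.1 and 112 FPKM in WT libraries. All Nlk-KO libraries were above all WT libraries (log2 fold change 0.31, SE 0.0407, adjusted p = 0.00112). Ubap2l, which acts with G3BP in granule nucleation, shares its row with Hax1 and 4933434E20Rik, and the locus had 141, 141 and 145 FPKM in Nlk-KO libraries, against 160, 172 and 156 FPKM in WT libraries. The groups were apart (log2 fold change -0.20, SE 0.0451, adjusted p = 0.0132), but the value belongs to the merged locus and not to Ubap2l alone.

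G3bp1, the core scaffold, had 144, 138 and 141 FPKM in Nlk-KO libraries, against 148, 151 and 148 FPKM in WT libraries. The Nlk-KO libraries were lower without overlap, by a log2 fold change of -0.08 with a 95% interval of -0.16 to -0.00 that did not pass the adjusted test (adjusted p = 0.0917). G3bp2 was at 0.06 (-0.02 to 0.15), and Usp10, a G3BP partner that opposes assembly, on a row that also covers Gm20388, at 0.09 (0.00 to 0.17). Nufip2 and Atxn2l, which associate with G3BP and granules, were at -0.07 and -0.12, and Atxn2l passed without Nlk-KO replicate 2 (adjusted p = 0.0233, against 0.0913 with all libraries). G3bp1 made up 74.0% ± 0.281 of the G3BP sum in Nlk-KO libraries and 75.9% ± 0.342 in WT libraries (SD, n = 3 each), with no overlap.

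The TIA proteins, whose prion-like domains aggregate in granules, and the FMRP family, which represses translation of bound messages in neurons, held no gene that passed. Tial1 had 60.3, 61.8 and 60.6 FPKM in Nlk-KO libraries and 59.1, 56.7 and 63.2 FPKM in WT libraries, and Tia1, whose row also covers Gm44790, averaged 15.5 FPKM in both genotypes. Their log2 fold changes were 0.03 and 0.00. Fxr1, the most abundant of the FMRP family, whose row also covers Dnajc19, had 121, 114 and 119 FPKM in Nlk-KO libraries and 120.2, 119 and 124 FPKM in WT libraries, which overlapped. Fmr1 was at 0.07 (-0.03 to 0.16) and Fxr2 at -0.08 (-0.18 to 0.01).

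Of the 7 genes for poly(A) binding, cap binding and initiation, Larp4 was the only one that passed. Its product binds poly(A) and the poly(A)-binding protein and protects messages from shortening. Larp4 had 70.9, 65.7 and 67.4 FPKM in Nlk-KO libraries, against 63.1, 61.9 and 62.5 FPKM in WT libraries, with no overlap (log2 fold change 0.12, SE 0.0367, adjusted p = 0.0370). The call was lost in 10 of 16 alternatives, among them leaving out any WT library (adjusted p = 0.0643 to 0.0981), Nlk-KO replicate 1 (0.102) or Nlk-KO replicate 3 (0.0809), with a range of 0.0211 to 1 over all 16. Its paralog Larp4b was at -0.15 (-0.27 to -0.02, adjusted p = 0.0685) and passed without WT replicate 3 (0.0214). Larp4 made up 55.6% ± 0.242 of the pair's FPKM in Nlk-KO libraries and 51.0% ± 1.46 in WT libraries (SD, n = 3 each).

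Pabpc1, the main cytoplasmic poly(A)-binding protein and the most abundant transcript of all 47, had 613, 598 and 608 FPKM in Nlk-KO libraries and 588, 628 and 584 FPKM in WT libraries. The libraries overlapped and the log2 fold change was 0.02, with an interval of -0.11 to 0.14. Pabpc4, the cap-binding Eif4e, its scaffold partner Eif4g1 and Eif2s1, the eIF2 subunit whose phosphorylation sets off granule assembly and whose row also covers Atp6v1d, lay between -0.07 and 0.07.

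The RNA helicases and decapping partners held no gene that passed. Ddx3x, a helicase of initiation, had 166, 151 and 160.0 FPKM in Nlk-KO libraries and 153, 149 and 151 FPKM in WT libraries. Ddx6, the decapping helicase of P-bodies, the cytoplasmic bodies of mRNA decay factors, had the largest estimate of the 4, at 0.17 (0.01 to 0.32, adjusted p = 0.0866), and it passed in the fit with the replicate number as a block (adjusted p = 0.0399, in a range of 0.0399 to 1 over 16 alternatives). Dhx36, which unwinds G-quadruplexes, and Lsm14a, a P-body protein, were at -0.00 and 0.04.

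Stau1, the double-stranded RNA-binding protein of mRNA transport and of Staufen-mediated decay, was higher in Nlk-KO cells. It had 28.8, 27.3 and 28.0 FPKM in Nlk-KO libraries, against 24.1, 24.7 and 23.5 FPKM in WT libraries. The groups were apart, with a log2 fold change of 0.22 (SE 0.0355, adjusted p = 0.00293). Its paralog Stau2, known for RNA transport into dendrites, was at 0.04 (-0.04 to 0.12). Pum2, which represses messages through Pumilio elements, had 53.7, 48.9 and 51.6 FPKM in Nlk-KO libraries and 52.1, 51.3 and 50.3 FPKM in WT libraries, and these overlapped.

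Among the Y-box, cold-inducible and packaging proteins, Habp4 and the locus of Cirbp were lower in Nlk-KO cells. Habp4, which binds RNA and inactive ribosomes, had 7.34, 7.63 and 7.78 FPKM in Nlk-KO libraries, against 8.995, 9.56 and 9.31 FPKM in WT libraries. The groups were apart, with a log2 fold change of -0.29 (SE 0.0435, adjusted p = 0.00215). Serbp1, its more abundant paralog, on a row that also covers Il12rb2, was at 0.07 (-0.01 to 0.15).

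Cirbp, a cold-inducible RNA-binding protein, is named on a row that spans 672334 bases of chromosome 10 (79697304 to 80369637) and 46 annotated coding genes. That locus had 21.1, 20.2 and 21.1 FPKM in Nlk-KO libraries, against 25.2, 27.2 and 23.7 FPKM in WT libraries, a log2 fold change of -0.28 (SE 0.0531, adjusted p = 0.00570). The groups were apart, and the value cannot be assigned to Cirbp. The cold-inducible relative Rbm3 had 439, 426 and 442 FPKM in Nlk-KO libraries and 434, 444 and 446 FPKM in WT libraries, and Ybx1, the main mRNA-packaging protein, averaged 430.1 ± 3.50 FPKM in Nlk-KO and 422 ± 25.99 FPKM in WT libraries (SD, n = 3 each). Both overlapped between genotypes.

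Of the 5 genes for splicing and RNA processing, 3 were higher, 1 was lower and 1 did not pass. Over all loci tested, 18.6% were higher and 18.5% were lower. Ssb and Celf1, both higher, lie on chromosome 2, where 53.9% of loci tested were higher. Neither passed with that chromosome's median log2 fold change removed (adjusted p = 0.0617 and 0.177). Rbpms had the second largest increase of the members, with 54.5, 54.8 and 54.4 FPKM in Nlk-KO libraries, against 38.7, 42.5 and 31.9 FPKM in WT libraries. The Nlk-KO libraries were nearly identical and above the more scattered WT libraries, with a log2 fold change of 0.54 (SE 0.0944, adjusted p = 0.00405). RBPMS is known from rat cells as a regulator of smooth muscle splicing. The 4 smooth muscle markers summed to 12.8 to 12.9 FPKM in Nlk-KO libraries and 0.873 to 1.22 FPKM in WT libraries, and their part in the result was not tested. Acta2 was the only one of the 4 that passed the test, while Tagln did not differ beyond its spread (log2 fold change 0.05) and Myh11 and Cnn1 were below the filter. In bulk RNA, a change in the number of cells of a kind and a change in RNA per cell cannot be told apart.

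Ssb encodes La, which binds the U-rich ends of newly made RNA polymerase III transcripts. Ssb had 197, 194 and 194 FPKM in Nlk-KO libraries, against 151, 144 and 166 FPKM in WT libraries (log2 fold change 0.35, SE 0.0533, adjusted p = 0.00238). The groups were apart, and the locus also overlaps Mettl5. Celf1, a splicing and decay factor that binds GU-rich sequence, had 76.4, 73.0 and 74.98 FPKM in Nlk-KO libraries, against 63.0, 64.0 and 59.2 FPKM in WT libraries (log2 fold change 0.27, SE 0.0399, adjusted p = 0.00202).

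Mbnl1, a splicing regulator that acts opposite to CELF1 on many exons, was lower. Mbnl1 had 35.2, 34.1 and 36.0 FPKM in Nlk-KO libraries, against 39.0, 39.9 and 38.6 FPKM in WT libraries, without overlap (log2 fold change -0.16, SE 0.0333, adjusted p = 0.00887). Its paralog Mbnl2 was at -0.06 (-0.16 to 0.04).

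**Figure D3:**
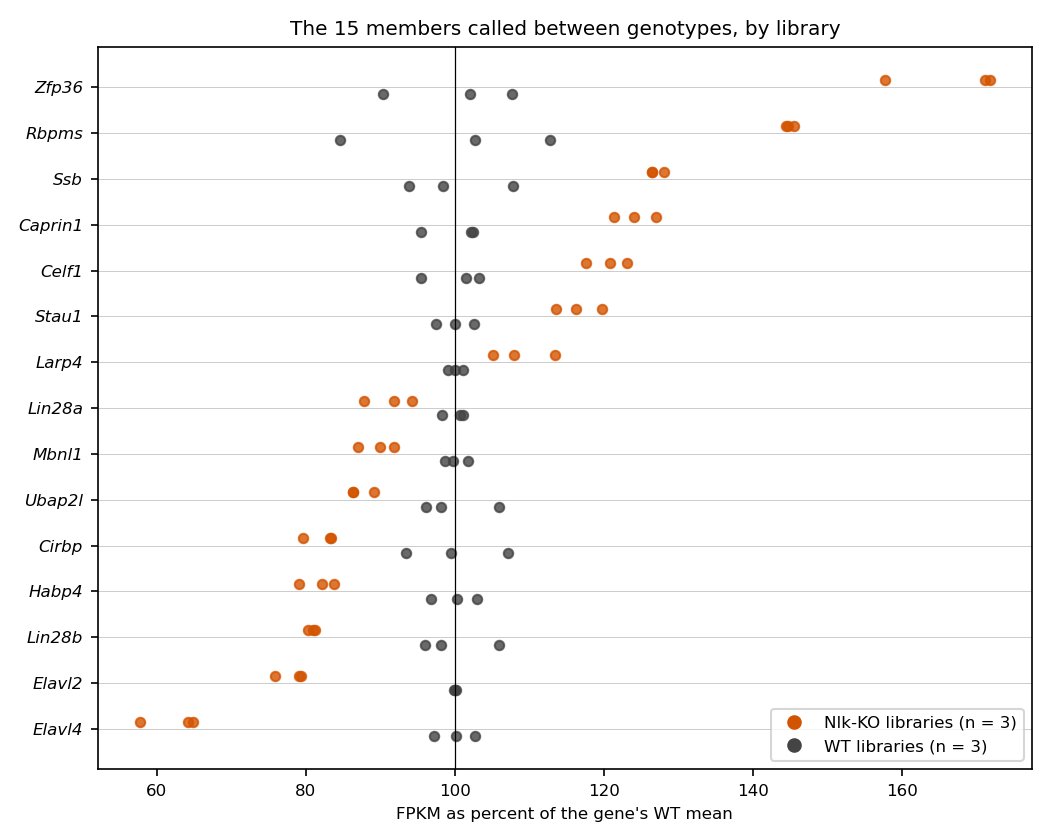
FPKM in each library as a percent of the gene's WT mean for the 15 members that passed the test, with Nlk-KO libraries in orange and WT libraries in grey. For each of the 15, picked by the test on these same values, the genotypes do not overlap, as for 51.0% of all loci tested. The spread within a genotype is widest for the WT libraries of Rbpms.

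The position of the members moved with their direction. All 4 members on chromosome 2 (Caprin1, Celf1, Ssb and Stau1) were higher, where 53.9% of all loci tested were higher and the median log2 fold change was 0.19. Both members on chromosome 10 (Lin28b and the Cirbp locus) were lower, where 50.5% of loci were lower and the median was -0.20. With each chromosome's median removed, the adjusted p was 0.0582 for Caprin1, 0.0617 for Ssb, 0.177 for Celf1, 0.563 for Stau1, 0.125 for Lin28b and 0.312 for the Cirbp locus, so none of these 6 passed. Over all 16 alternatives the adjusted p of these 6 ran from 0.000568, for Caprin1, to 1. Ubap2l and Mbnl1 on chromosome 3, where the median was -0.10, and Larp4 on chromosome 15, where it was 0.01, did not pass in that fit either.

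On chromosome 4, 3 of 5 members were lower (Elavl4, Elavl2 and Lin28a), beside 15.6% of all loci there and a chromosome median of 0.01. These calls were kept with the median removed, as were those of Zfp36, Rbpms and Habp4, and G3bp2 on chromosome 5 became a call at a log2 fold change of 0.17 (adjusted p = 0.00990), the only 1 of 16 alternatives in which it passed. The members then counted 3 higher and 4 lower. What moved the loci of chromosomes 2 and 10 together was not tested.

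**Figure D4:**
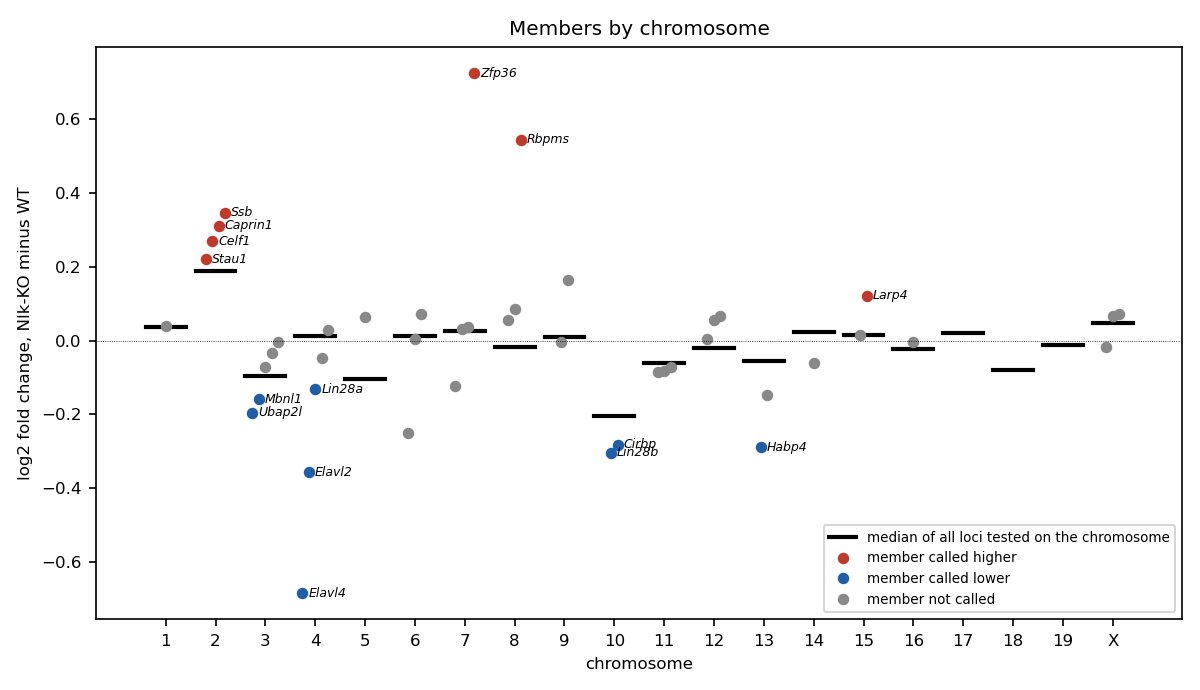
Log2 fold change, Nlk-KO minus WT, for each tested member by chromosome, with a black bar for the median of all loci tested on that chromosome. The 4 members of chromosome 2 lie at or above a median of 0.19 and both members of chromosome 10 below a median of -0.20, whereas Elavl4 and Elavl2 lie far below a chromosome 4 median near 0.

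Lists of related genes were read in the same fit. Of 180 such genes in the table, 171 were tested, 18 were higher and 25 were lower, with a median log2 fold change of -0.02 and a median size of change of 0.08. All counts in these lists stand beside the 18.6% of loci that were higher and the 18.5% that were lower over the whole table. Genes of P-bodies and mRNA decay numbered 51, with 2 higher, 9 lower and a median of -0.04. Pan2, the catalytic subunit of a poly(A) nuclease, was lower at -0.46 (17.6 ± 1.70 FPKM in Nlk-KO and 24.2 ± 1.10 FPKM in WT libraries, SD, n = 3 each). It lies on chromosome 10, and with the chromosome median removed it was at -0.26 and still passed (adjusted p = 0.0349). Over all 16 alternatives its adjusted p ran from 0.00237 to 0.373. Lsm4, a subunit of the ring that binds shortened messages for decapping, was lower at -0.32 (130.1 ± 4.18 FPKM in Nlk-KO and 162 ± 6.03 FPKM in WT libraries, SD, n = 3 each). Zfp36l2, the third gene of the Zfp36 family in these cells and merged here with Thada, was higher at 0.24.

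Translation initiation factors numbered 47, with 5 higher, 8 lower and a median of -0.03. Eif4e3, an atypical cap-binding protein on a row that also covers the predicted gene Gm20696, fell furthest and had 12.8, 11.8 and 12.6 FPKM in Nlk-KO libraries, against 20.3, 20.9 and 21.3 FPKM in WT libraries (log2 fold change -0.74, SE 0.0423, adjusted p = 2.29e-05). The groups were far apart and the gene passed under all 16 alternatives. Eif3m and Eif2s2, subunits of eIF3 and eIF2, were higher at 0.32 and 0.31, and both lie on chromosome 2. Their rows also cover other coding genes, Ccdc73 for Eif3m and a (agouti) for Eif2s2. With the chromosome median removed, Eif3m was at 0.13 and still passed (adjusted p = 0.0262), while Eif2s2 was at 0.12 and did not (adjusted p = 0.0503). Over all 16 alternatives the adjusted p ran from 0.000270 to 0.512 for Eif3m and from 0.000599 to 0.805 for Eif2s2. Of 9 eIF2 kinase and phosphatase genes, Ppp1r15b, a regulatory subunit of the eIF2 phosphatase, was higher at 0.20 and Eif2ak2, the kinase PKR, at 0.12, and none was lower.

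Other stress granule proteins numbered 30, with 3 higher, 1 lower and a median of 0.02. Prrc2b, a granule protein encoded on chromosome 2, was higher at 0.26, and Purb, which binds single-stranded nucleic acid, at 0.24. With the chromosome median removed, Prrc2b did not pass (adjusted p = 0.318, in a range of 0.00356 to 1 over 16 alternatives). Sqstm1, the autophagy receptor p62, was lower at -0.19 on the log2 scale. Among 11 partners of LIN28 and let-7, 10 were tested, with a median of -0.07. Zcchc11, a uridylyltransferase that works with LIN28, was higher at 0.12, and Dicer1, which cuts precursor microRNAs, was lower at -0.14. Of the related genes named, Eif2ak2, Zcchc11 and Dicer1 lost their call when some single libraries were left out, and Sqstm1 without Nlk-KO replicate 3. With the chromosome median removed, the calls of Eif2ak2, Zcchc11 and Sqstm1 were lost as well, so that of 16 alternatives Eif2ak2 passed in 8, Zcchc11 in 6, Dicer1 in 9 and Sqstm1 in 12.

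The list of other neural RNA-binding proteins held the largest changes. Of its 32 genes, 24 were tested, 5 were higher and 6 were lower (beside 18.6% and 18.5% of all loci tested), the median was -0.03, and the median size of change was 0.16, against 0.14 over all loci tested. Rbpms2, the paralog of Rbpms, had 3.70, 3.59 and 3.91 FPKM in Nlk-KO libraries, against 1.69, 1.64 and 1.29 FPKM in WT libraries (log2 fold change 1.23, SE 0.109, adjusted p = 0.000171). Both Rbpms genes were thus higher without overlap. Samd4, a homolog of the fly translational repressor Smaug, had 1.76, 1.90 and 1.70 FPKM in Nlk-KO libraries, against 3.62, 3.32 and 3.42 FPKM in WT libraries (log2 fold change -0.91, SE 0.0727, adjusted p = 0.000106), also without overlap. Celf3, a brain-enriched relative of Celf1 whose row also covers Riiad1, had 42.3, 43.3 and 42.4 FPKM in Nlk-KO libraries, against 65.8, 65.5 and 60.1 FPKM in WT libraries (log2 fold change -0.58, SE 0.0420, adjusted p = 7.06e-05).

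**Figure D5:**
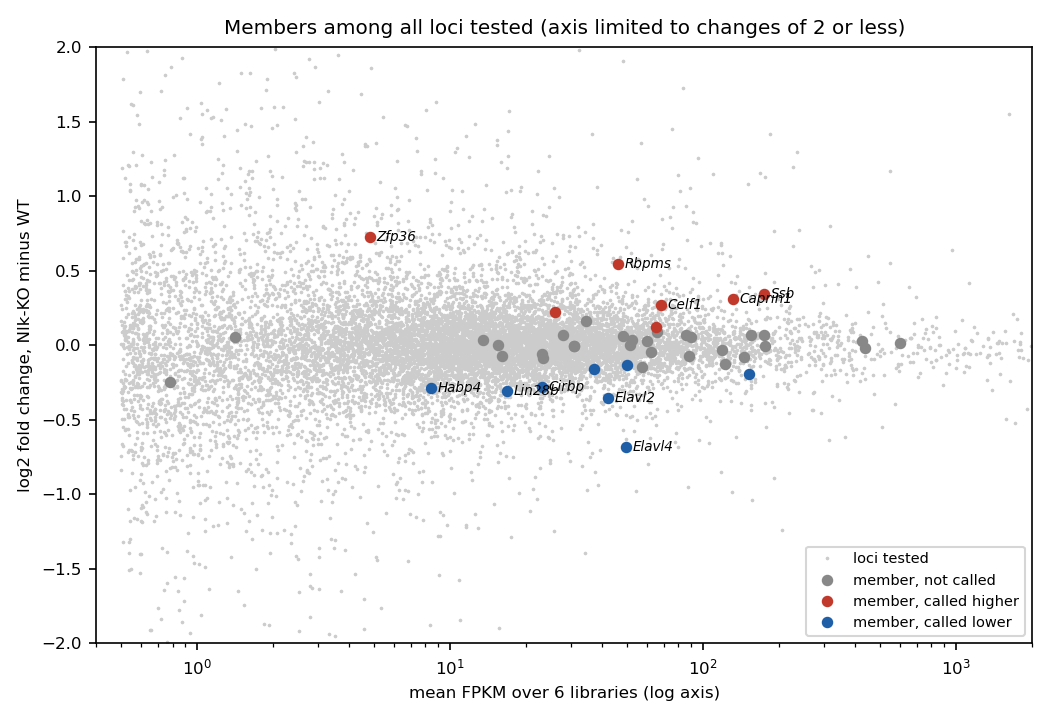
Log2 fold change, Nlk-KO minus WT, against mean FPKM on a log axis, with loci tested as small grey points and members as large points, red where higher, blue where lower and dark grey where they did not pass. Elavl4 and Zfp36 lie farthest from 0 among the members, and most members lie near 0. The axes leave out 239 loci with larger changes or higher levels.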

How the data were processed

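RNA was column-purified, treated with DNase I, oligo-dT selected and sequenced as paired reads of 75 bases. The authors aligned the reads to GRCm38 (mm10) with TopHat2 (2.1.0), estimated levels with Cufflinks (2.2.1) and deposited FPKM per locus from Cuffnorm. Which annotation they used, and how libraries were scaled to one another, is not given in the sources used here. Total reads are unknown. Relative depth came from the steps of low FPKM values. The deposited fold changes and p-values are the authors' own comparison and were not used.

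Values were taken as log2(FPKM + 0.1), which understates the change of low genes. Loci averaging 0.5 FPKM or more over the 6 libraries, 12667 in all, entered a limma fit (version 3.58.1 in R 4.3.3, trended prior) of 3 Nlk-KO against 3 WT libraries. Benjamini-Hochberg adjustment covered all of them, with a threshold of 0.05. The fit was tested on simulated data. Coordinates, exons and transcript sequences are from GENCODE vM21 (GRCm38), promoters and miRNAs from RefSeq.

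Members and lists were chosen with earlier results of these data known. Library values are given for members past the threshold, for those without overlap and a change of at least 0.2, and for the most abundant member of each role. Of related genes, up to 3 per list past the threshold with the largest change are named. Values of other members (such as Elavl3, G3bp1 and Rbm3) were added after they were seen.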

Additional observations from a re-analysis of the deposited data

How the results depend on the processing

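The counts of members (7 higher, 8 lower), of related genes (18 higher, 25 lower) and of all loci called (4697, with 2356 higher and 2341 lower) stayed within 1.5 times under another pseudocount, another filter on low values, median-ratio scaling and a constant prior variance. With libraries rescaled to the same FPKM sum over loci with a symbol, which multiplied them by 0.861 to 1.16, 1 member was higher and 1 lower, 1 related gene was higher and 2 lower, and 921 loci were called, 566 higher and 355 lower. Against a change of 1.2-fold, 1 member was higher and 1 lower, 1 related gene was higher and 4 lower, and 1069 loci were called. With each chromosome's median removed, 3 members were higher and 4 lower, and 15 related genes were lower. Leaving out 1 library at a time gave 6 to 7 members higher, 7 to 8 lower, 12 to 18 related genes higher, 13 to 28 lower and 3500 to 4504 loci. The deviations of same-numbered libraries were not paired (r = 0.04, 0.06 and -0.13 across loci), and a fit with the replicate number as a block gave 7 members higher and 7 lower, 16 related genes lower and 4038 loci. The cause of these differences was not tested. Depth limits what can be said of Igf2bp1, Igf2bp2, Igf2bp3 and Zfp36l1, whose levels were under 2 FPKM.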
